A study of Mus musculus with 20 samples.

Results

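The p53 pathway was read through 10 genes, Trp53 itself and 9 of its target genes, in the RNA-seq table of mouse embryonic stem cells (ESC), pluripotent cells kept in culture. The genes were taken by their symbols, and all 10 were found, once each, among 29692 genes. The cells were grown in fetal bovine serum with leukemia inhibitory factor (LIF) and sorted by flow cytometry. The sort read Nanog and Sox2, both factors of pluripotency: cells of state 3 had little of either, cells of state 2 had little Nanog but much Sox2, and cells of state 1 had much of both. The unsorted total population was the remaining group. Each group had 3 RNA-seq libraries and 2 small RNA libraries. No treatment or DNA damage is named, and the sources used here do not say how the levels of the 2 factors were read in the sort.

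The tables give 1 value per gene and group, a normalized value set by the authors from the libraries of a group, so no spread between libraries can be shown. The authors also gave posterior probabilities for 15 patterns of equal and unequal groups. The posterior of a difference between 2 groups was summed here over the patterns that set them apart, and a gene was called at 0.95 or more. For log2 ratios, 1 was added to each value. The 6 pairs of groups share their libraries and are not independent of each other. In the RNA-seq table, column totals were 16.9 to 17.7 M, for which about 48.0 to 60.4 M reads or read pairs were estimated. Bbc3, the lowest of the 10 genes in each group, rested on an estimated 585 to 1028 of them, a counting error of 3.12% to 4.14%. The sorted genes followed their labels: Nanog had 440.0 in state 3, 743 in state 2 and 4145 in state 1, and Sox2 had 1306, 3167 and 4155 in the same order.

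The p53 protein is a transcription factor that is kept low by Mdm2, a ubiquitin ligase that marks it for degradation, and that accumulates when DNA damage or other stress breaks this hold. Its targets arrest the cell cycle, restrain growth signalling, trigger cell death and, through Mdm2, switch p53 off again. Since the control acts mostly on the protein, Trp53 RNA does not measure p53 activity. In mouse ESC p53 is also known to bind the Nanog promoter and to lower Nanog after DNA damage.

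Most of the 9 targets had more RNA in the Nanog-low states, while Trp53 had less. Against state 1, 8 of the 10 genes were called in state 3, 6 higher and 2 lower, where 20.4% of all genes (11.4% higher, 9.01% lower) and 42.5% of the 9953 genes with a mean of at least 100 (20.8% higher, 21.7% lower) were called. In state 2 against state 1, 9 were called, 7 higher and 2 lower, beside 13.4% of all genes (7.11% higher, 6.33% lower) and 28.9% of those with a mean of at least 100 (13.3% higher, 15.6% lower). In state 3 against state 2, 2 were called, 1 higher and 1 lower, beside 8.59% of all genes (5.41% higher, 3.19% lower) and 18.4% of those with a mean of at least 100 (10.6% higher, 7.83% lower), so this share lay close to the background of the more abundant genes. The median log2 ratio of the 10 genes was 0.45 in state 3 and 0.51 in state 2, each set against state 1, and 0.055 when state 3 was set against state 2. The median of the genes with a mean of at least 100 was -0.059, -0.035 and -0.026 for the same comparisons. In bulk RNA, a change in the share of cells that express a gene and a change in RNA per cell cannot be told apart.

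**Figure D1:**
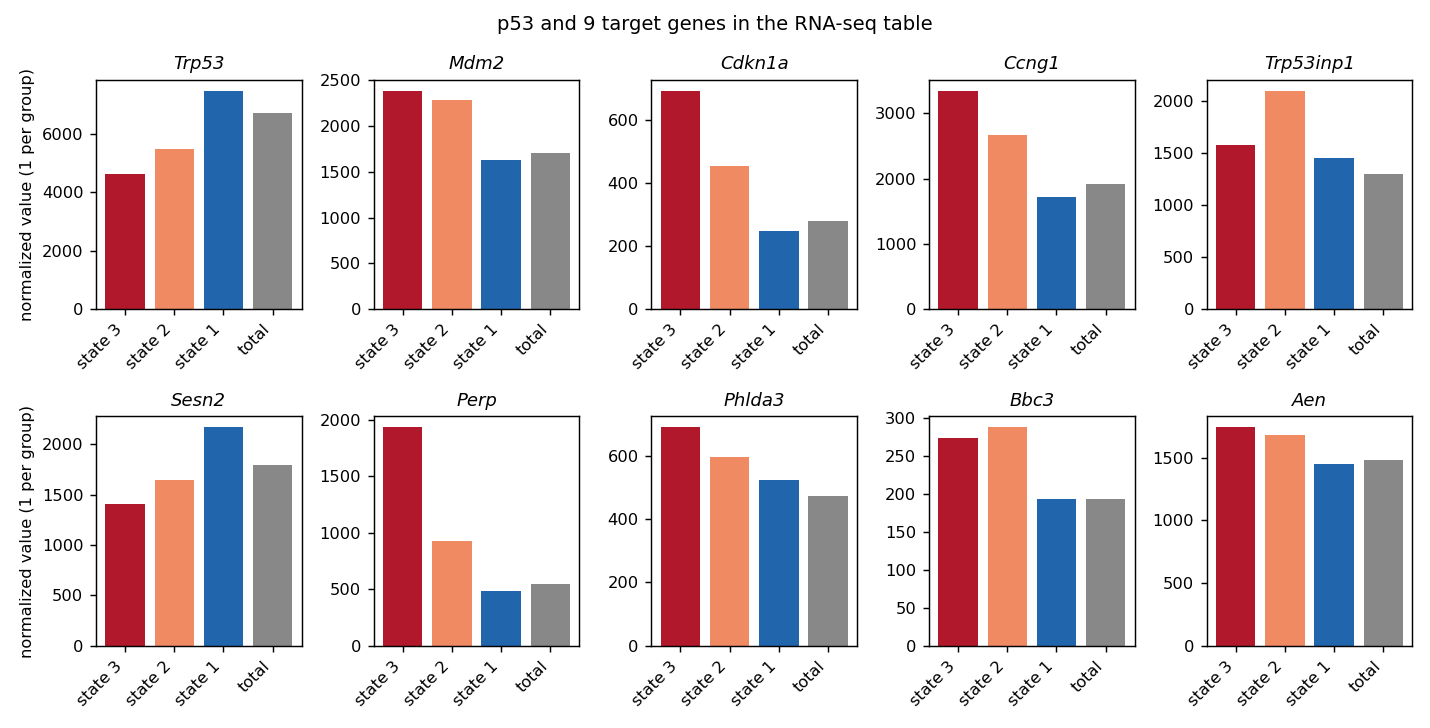
Normalized value (vertical axis, from 0, with its own scale for each gene) of Trp53 and 9 target genes in state 3, state 2, state 1 and the total population, 1 bar per group with no error because the table holds 1 value per group. Trp53 and Sesn2 have their highest bar in state 1, Trp53inp1 and Bbc3 in state 2, and the other 6 genes in state 3.

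Trp53 (ENSMUSG00000059552.13, chromosome 11, 69580348 to 69591873 in GRCm38) had 4631 in state 3, 5478 in state 2, 7475 in state 1 and 6709 in the total population. It fell in state 3 against state 1 by 0.69 on the log2 scale (posterior 1.00) and in state 2 against state 1 by 0.45 (posterior 0.999). States 3 and 2 were not called apart (log2 -0.24, posterior 0.053), and neither were state 1 and the total population (log2 0.16, posterior 0.0023). By Euclidean distance over the 4 group values, after log2 and centring, the genes with the most similar course among 9505 included Stat3 (distance 0.017) and Ptprk (0.025).

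Mdm2 (ENSMUSG00000020184.15, chromosome 10, 117688875 to 117710758), the ligase that p53 induces and that degrades p53, moved the other way. Its values were 2388 in state 3, 2291 in state 2, 1625 in state 1 and 1710.0 in the total population. It rose in state 3 and in state 2 against state 1, by 0.56 and 0.50 on the log2 scale (posterior 1.00 for each), and the 2 Nanog-low states were not called apart (log2 0.060, posterior 0.016). In the authors' deposited table, the pattern with states 3 and 2 equal and state 1 equal to the total population had a probability of 0.98 for Mdm2 and 0.946 for Trp53.

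Ccng1 (ENSMUSG00000020326.7, chromosome 11, 40748552 to 40755309) encodes cyclin G1, a p53 target that brings a phosphatase to Mdm2. It had 3348 in state 3, 2672 in state 2, 1718 in state 1 and 1912 in the total population. It rose by 0.96 on the log2 scale in state 3 against state 1 (1.95-fold, posterior 1.00) and by 0.64 in state 2 against state 1 (posterior 1.00). The step between the Nanog-low states, 0.33 on the log2 scale, was not called (posterior 0.157).

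Trp53inp1 (ENSMUSG00000028211.11, chromosome 4, 11156441 to 11174379), a stress-induced nuclear protein that promotes p53 phosphorylation and autophagy, had its highest value in state 2. The values were 1575 in state 3, 2101 in state 2, 1457 in state 1 and 1304 in the total population. It rose in state 2 against state 1 (log2 0.53, posterior 1.00). State 3 was called apart neither from state 1 (log2 0.11, posterior 0.526) nor from state 2 (log2 -0.42, posterior 0.786). Its likeliest arrangement of the 3 states set state 2 apart from equal states 1 and 3, with a summed probability of 0.474, so the place of state 3 was not resolved.

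Cdkn1a (ENSMUSG00000023067.13, chromosome 17, 29090979 to 29100722) encodes p21, the inhibitor of cyclin-dependent kinases through which p53 halts the cell cycle. Its values were 693 in state 3, 455 in state 2, 247 in state 1 and 281 in the total population. It was 2.81-fold higher in state 3 than in state 1 (log2 1.48, posterior 1.00) and 1.84-fold higher in state 2 than in state 1 (log2 0.88, posterior 1.00). The further difference of 0.61 between state 3 and state 2 was not called, with a posterior of 0.66. All 3 states apart had a summed probability of 0.66, and equal states 2 and 3 with state 1 apart had 0.34. The genes with the most similar course were Eps8l2 (distance 0.028), St14 (0.037) and Dusp3 (0.044), over the same 4 values.

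Sesn2 (ENSMUSG00000028893.8, chromosome 4, 132492804 to 132510456), a leucine sensor that restrains mTORC1 and that answers to p53 and to other stress pathways, was lower in the Nanog-low states. It had 1413 in state 3, 1651 in state 2, 2170.1 in state 1 and 1792 in the total population. It fell by 0.62 on the log2 scale in state 3 against state 1 and by 0.39 in state 2 against state 1 (posterior 1.00 for each). It also fell by 0.22 in state 3 against state 2, with a posterior of 0.995, a smaller ratio than that of Cdkn1a in the same comparison, which was not called. The state 2 call depends on the inferred order of the patterns: with state 1 and the total population exchanged, the posterior of state 2 against state 1 was 0.351.

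Perp (ENSMUSG00000019851.8, chromosome 10, 18845071 to 18857073) is a membrane protein of p53-dependent death and, as a p63 target, a part of desmosomes in mouse epithelia. It showed the widest range of the 10 genes. The values were 1935 in state 3, 928 in state 2, 485 in state 1 and 542 in the total population. Perp was 3.99-fold higher in state 3 than in state 1 (log2 1.99), and both steps were called: the log2 ratio of state 3 to state 2 was 1.06, and that of state 2 to state 1 was 0.93 (posterior 1.00 for each). Trp63, which encodes p63, had 2.18 in state 3, 0.88 in state 2 and 0.65 in state 1 and was not called. The last of these is under the value of 0.96 that 3 reads over the group would give.

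Bbc3 (ENSMUSG00000002083.13, chromosome 7, 16308398 to 16318334) encodes PUMA, a BH3-only protein that starts mitochondrial apoptosis. It had 274 in state 3, 288 in state 2, 193 in state 1 and 193 in the total population. It rose in state 3 against state 1 (log2 0.50, posterior 1.00) and in state 2 against state 1 (log2 0.57, posterior 1.00), and the Nanog-low states were not called apart (log2 -0.073, posterior 0.028).

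Phlda3 (ENSMUSG00000041801.5, chromosome 1, 135766085 to 135769134), a pleckstrin-homology protein that competes with Akt for membrane lipids, had 691 in state 3, 596 in state 2, 523 in state 1 and 472 in the total population. It rose in state 3 against state 1 (log2 0.40, posterior 1.00). The rise in state 2 against state 1, 0.19 on the log2 scale, was called with a posterior of 0.966, the lowest among the calls between states. Aen (ENSMUSG00000030609.18, chromosome 7, 78895927 to 78911209), a nuclease induced by p53, had 1742 in state 3, 1683 in state 2, 1452 in state 1 and 1482 in the total population. Aen was not called in any of the 6 comparisons, and its posterior of a difference from state 1 was 0.274 in state 3 (log2 0.26) and 0.254 in state 2 (log2 0.21).

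**Figure D2:**
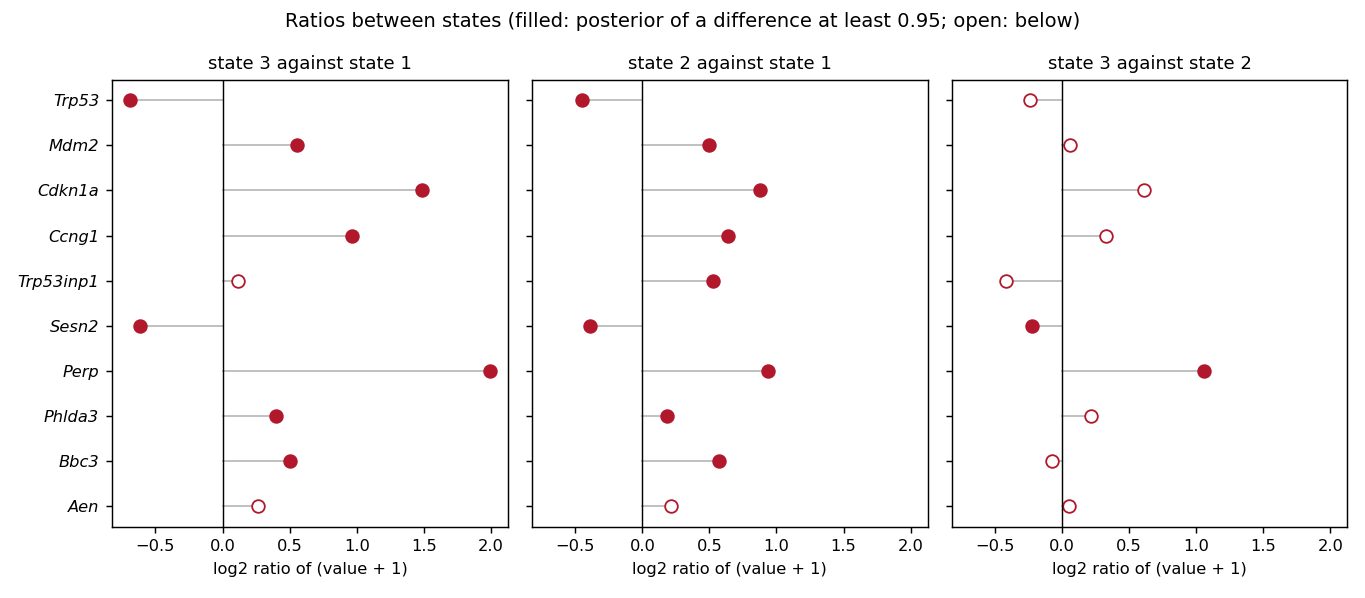
Log2 ratio of the value plus 1 (horizontal axis) for each of the 10 genes in 3 comparisons between states; filled points have a posterior of a difference of at least 0.95, open points lie below it. Against state 1, 8 genes are filled for state 3 and 9 for state 2, with Trp53 and Sesn2 left of 0; for state 3 against state 2, Perp and Sesn2 are filled.

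State 2 lay between states 1 and 3 for 8 of the 10 genes, at 0.466 to 0.892 of the way up or down the log2 scale between them. The exceptions were Trp53inp1 and Bbc3, with their highest value in state 2. Mdm2 stood at 0.892 of the distance, Trp53 at 0.649, Cdkn1a at 0.591 and Perp at 0.468. Summed over the patterns, state 1 apart from equal states 2 and 3 was the likeliest arrangement for 5 genes (Trp53, Mdm2, Ccng1, Phlda3 and Bbc3), and it reached 0.95 for 2 of them, Mdm2 and Bbc3, as for 1121 of all 29692 genes. All 3 states apart was likeliest for 3 genes (Cdkn1a, Sesn2 and Perp), and it reached 0.95 for 2 of them, Sesn2 and Perp, as for 1043 of all genes. Equal states reached 0.95 for 0 of the 10 genes and for 16385 of all genes. These counts over all genes were not matched for abundance. Of the 29692 genes, 16795 had a mean of at least 5, while Bbc3, the lowest of the 10, had a mean of 237.

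**Figure D3:**
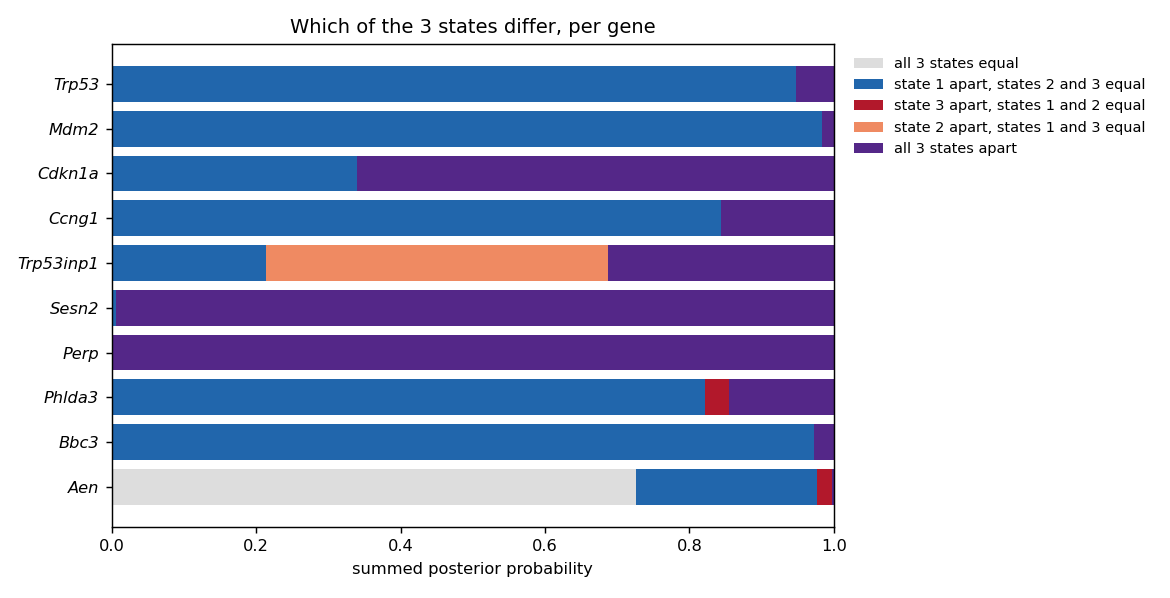
Summed posterior probability (horizontal axis, 0 to 1) of the 5 possible arrangements of the 3 states for each gene. Mdm2 and Bbc3 are filled almost wholly by state 1 apart from equal states 2 and 3, Sesn2 and Perp by all 3 states apart, and Aen mostly by equal states, with 0.726.

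The total population lay nearest to state 1 for 9 of the 10 genes on the log2 scale, and nearest to state 2 for Sesn2. State 1 against the total population gave 1 call, Sesn2, higher in state 1 (log2 0.28, posterior 0.999), where 1.98% of all genes (0.707% higher, 1.27% lower) and 4.49% of those with a mean of at least 100 were called. Against the total population, state 3 had 6 genes called higher and 2 lower, beside 19.1% of all genes (10.8% higher, 8.32% lower) and 39.7% of those with a mean of at least 100. State 2 had 7 called higher and 1 lower, beside 11.1% of all genes (5.82% higher, 5.3% lower) and 24.2% of those with a mean of at least 100. The median log2 ratio of the 10 genes was 0.49 for state 3, 0.45 for state 2 and -0.014 for state 1 against the total population.

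The other genes of the pathway did not all move with these targets. Their counts stand beside 20.4% of all genes and 42.5% of those with a mean of at least 100 called in state 3 against state 1, 13.4% and 28.9% in state 2 against state 1, and 8.59% and 18.4% in state 3 against state 2. Of 12 other apoptosis targets, 5 rose and 3 fell in state 3 against state 1 (median log2 0.42), and 5 rose and 1 fell in state 2 against state 1 (median 0.22). Pmaip1, which encodes the BH3-only protein NOXA, had 1652 in state 3, 1276 in state 2 and 699 in state 1, and it rose in state 3 and in state 2 against state 1 (log2 1.24 and 0.87). Tnfrsf10b, a death receptor, rose by 0.88 on the log2 scale in state 3 against state 1, Casp6, an executioner caspase, by 0.76, and Apaf1, the scaffold of the apoptosome, by 0.58 in state 2 against state 1. Bid, a BH3-only protein cleaved by caspases, fell by 0.72 in state 3 against state 1. In state 3 against state 2, 1 of the 12 rose (Tnfrsf10b) and 3 fell (Bid, Ei24 and Pidd1).

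Of 25 other targets in arrest, repair and metabolism, 7 rose and 6 fell in state 3 against state 1 (median log2 0.024), 6 rose and 5 fell in state 2 against state 1 (median 0.011), and 3 rose and 3 fell in state 3 against state 2 (median -0.076). Beside the 42.5%, 28.9% and 18.4% of genes with a mean of at least 100 called in these comparisons, the counts of this list lay near the background. Sfn, the 14-3-3 sigma protein of epithelial cells, had 4179 in state 3 and 1190.1 in state 1 (log2 1.81), and Plk2, a polo-like kinase, had 1394 and 465 (log2 1.58). Sesn1, the paralogue of Sesn2, had 142 in state 3, 193 in state 2 and 382 in state 1, and it fell against state 1 by 1.42 in state 3 and by 0.98 in state 2. Btg2, an antiproliferative protein, and Ddit4, an inhibitor of mTORC1, rose in state 2 against state 1 by 0.80 and 0.98 on the log2 scale.

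Among 22 genes that act on p53, 4 rose and 10 fell in state 3 against state 1 (median log2 -0.19), 4 rose and 6 fell in state 2 against state 1 (median -0.054), and 0 rose and 10 fell in state 3 against state 2 (median -0.26). Of the genes with a mean of at least 100, 21.7%, 15.6% and 7.83% were called lower in these comparisons, and of all genes 9.01%, 6.33% and 3.19%. Mdm4 is the partner of Mdm2 that blocks the transactivation domain of p53. It had 2526 in state 3, 4145 in state 2 and 5486 in state 1. In state 3 against state 1 Mdm4 fell (log2 -1.12), opposite in direction to Mdm2. In state 2 against state 1, where Mdm2 rose, Mdm4 was not called (log2 -0.40, posterior 0.059). Between states 3 and 2, where Mdm2 was not called, Mdm4 fell (log2 -0.71, posterior 0.999). Sirt1, a deacetylase of p53, had 829 in state 3 and 2079 in state 1 (log2 -1.33), and Chek2, a checkpoint kinase, had 362 and 700.5 (log2 -0.95). Cdkn2a, whose product ARF inhibits Mdm2, had 39.1 in state 3, 24.0 in state 2 and 10.6 in state 1, and it rose in state 3 and in state 2 against state 1 (log2 1.79 and 1.10). Ppp1r13l, the inhibitor iASPP, and Trp53bp1, a repair adaptor, rose in state 2 against state 1 by 0.79 and 0.56.

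Genes of G2 and mitosis are known to be repressed when p21 restores the DREAM complex. Of 18 such genes, 1 rose (Foxm1, a transcription factor that drives such genes, log2 0.21) and 13 fell in state 3 against state 1 (median log2 -0.57), and 0 rose and 11 fell in state 2 against state 1 (median -0.38). In state 3 against state 2, 1 rose, again Foxm1, and 9 fell (median -0.25). The share called lower was 9.01%, 6.33% and 3.19% of all genes in these comparisons, and 21.7%, 15.6% and 7.83% of those with a mean of at least 100. Top2a, a topoisomerase of dividing cells, had 7079 in state 3, 10464 in state 2 and 14695 in state 1, the reverse of the order of Cdkn1a. Whether p21 took part in the values of the G2/M genes was not tested.

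**Figure D4:**
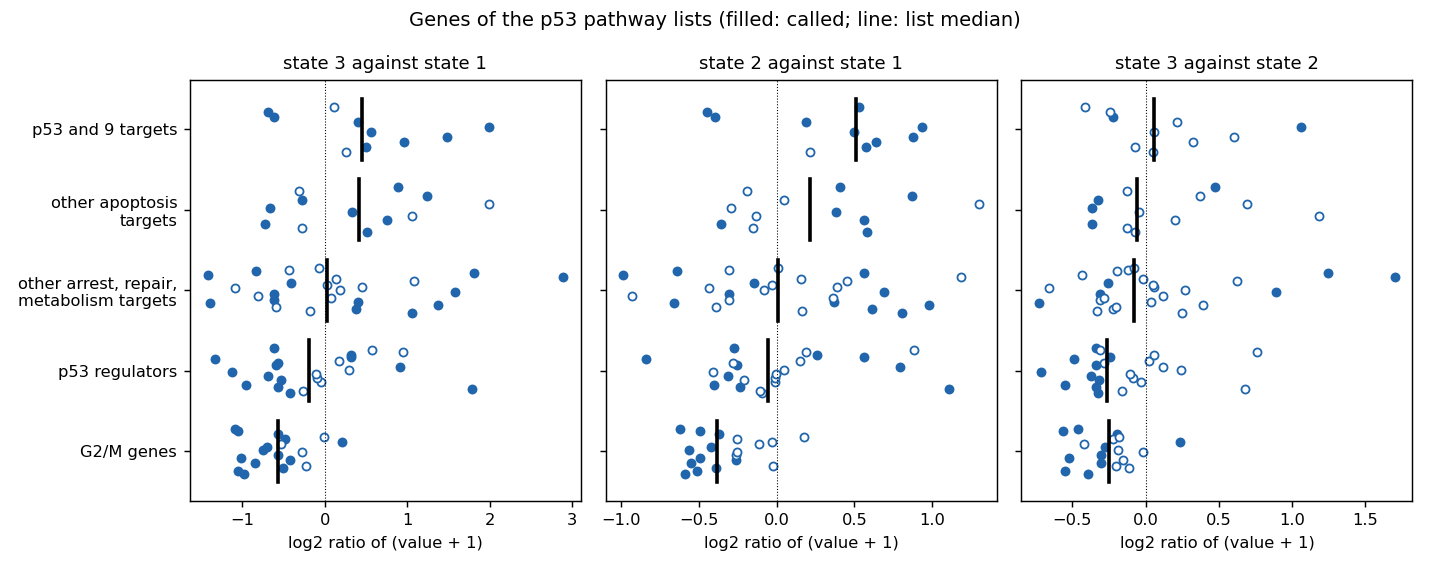
Log2 ratio of the value plus 1 (horizontal axis) of each gene in 5 lists for 3 comparisons between states; filled points were called, open points were not, and the black line is the list's median. For state 3 against state 1, the median is 0.45 for p53 and its 9 targets, 0.42 for the other apoptosis targets, 0.024 for the other arrest, repair and metabolism targets, -0.19 for the regulators and -0.57 for the G2/M genes.

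Markers of stress and of another cell type were counted in the same comparisons. Of 16 immediate-early and dissociation stress genes, 13 rose and 0 fell in state 3 against state 1, 12 rose and 0 fell in state 2 against state 1, and 6 rose and 0 fell in state 3 against state 2. Genes called higher in these comparisons made up 11.4%, 7.11% and 5.41% of all genes, and 20.8%, 13.3% and 10.6% of those with a mean of at least 100. The summed value of the 16 was 14412 in state 3, 10609.9 in state 2, 7233 in state 1 and 8248 in the total population, and Atf3, a stress-induced factor, had 311 in state 3 and 47.7 in state 1. Of 14 markers of feeder fibroblasts, cells that ESC cultures can hold, 12 were found. Of these, 6 rose in state 3 against state 1 and against state 2, and 1 (Col3a1) rose in state 2 against state 1, with 0 falls. In state 2 against the total population 0 of the 12 were called. The 12 fibroblast markers had a median log2 ratio of 0.65 in state 2 against state 1 and of 1.60 in state 3 against state 2. Their summed value was 1461 in state 3, 316 in state 2, 220 in state 1 and 324 in the total population; Dcn was listed at 0 in state 1 and Lum at 0 in state 2. Col1a1, a collagen chain of fibroblasts and of other mesenchymal cells, had 827, 107 and 23.0 in states 3, 2 and 1. The part of either list in the values of the p53 targets was not tested.

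Promoter windows from RefSeq (GRCm38.p6), from 250 bases before to 50 bases after an annotated start, were available for 8 of the 10 genes, in 12 windows. They were searched for exact matches to the p53 half-site, the decamer that p53 dimers bind, which reads alike on both strands. A half-site lay in 5 of the 8 genes (Trp53, Mdm2, Cdkn1a, Ccng1 and Aen), against 9.55% of the 27025 genes with a window. Of these genes, Mdm2, Cdkn1a and Ccng1 rose, Trp53 fell and Aen was not called in state 3 against state 1, so a match did not go with 1 direction. A pair of half-sites at most 13 bases apart, the form of a full site, lay in 1 window of these genes, the upstream one of Cdkn1a, and in 24 of all 32851 windows. A match is a description of letters, and binding was not measured. The windows of the 4 called genes with a match are shown because they carry the letters on which this count rests; capitals mark the half-sites.
Cdkn1a, upstream start, chr17:29090729-29091028, plus strand: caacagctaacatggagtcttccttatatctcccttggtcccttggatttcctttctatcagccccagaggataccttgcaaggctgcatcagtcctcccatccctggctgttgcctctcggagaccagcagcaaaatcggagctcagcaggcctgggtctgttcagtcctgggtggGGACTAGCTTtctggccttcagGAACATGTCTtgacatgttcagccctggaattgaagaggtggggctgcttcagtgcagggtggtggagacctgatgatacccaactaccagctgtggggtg
Mdm2, chr10:117710709-117711008, minus strand: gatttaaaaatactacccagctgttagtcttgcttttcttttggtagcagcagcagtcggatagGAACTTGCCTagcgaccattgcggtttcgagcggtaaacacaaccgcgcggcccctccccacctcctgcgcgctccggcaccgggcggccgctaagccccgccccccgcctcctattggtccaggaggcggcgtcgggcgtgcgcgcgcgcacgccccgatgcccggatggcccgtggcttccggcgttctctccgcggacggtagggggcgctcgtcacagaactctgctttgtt
Ccng1, chr11:40755237-40755536, minus strand: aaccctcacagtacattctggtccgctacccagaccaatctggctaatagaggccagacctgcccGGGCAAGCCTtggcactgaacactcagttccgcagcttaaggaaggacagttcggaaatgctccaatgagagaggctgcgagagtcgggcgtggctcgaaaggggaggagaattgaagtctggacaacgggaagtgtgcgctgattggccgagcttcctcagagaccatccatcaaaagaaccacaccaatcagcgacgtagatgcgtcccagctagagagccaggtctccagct
Trp53, chr11:69580109-69580408, plus strand: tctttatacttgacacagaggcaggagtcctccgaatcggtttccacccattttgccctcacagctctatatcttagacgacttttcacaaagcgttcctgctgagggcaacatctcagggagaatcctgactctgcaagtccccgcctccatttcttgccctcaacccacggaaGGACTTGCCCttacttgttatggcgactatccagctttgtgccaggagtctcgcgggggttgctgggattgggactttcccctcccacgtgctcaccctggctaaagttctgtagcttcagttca

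In the Cdkn1a window the first half-site began 73 bases before the upstream start, and 12 bases separated it from the second. Directly after the second came tgacatgttc, which departs from the half-site only at its first letter. The exact search left it unmarked. The start of the other Cdkn1a window lay 2790 bases further downstream, and that window held no match. The match began 186 bases before the start in Mdm2, 185 in Ccng1 and 75 in Trp53. The windows of Sesn2, Phlda3 and Bbc3 held no exact match, which says only that these letters are not in those windows.

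The small RNA libraries gave a second reading of these genes, from fragments short enough to enter such libraries. Their replicates are labelled D and E, and those of RNA-seq A to C. All 10 genes were listed there, with values of 0.67 to 49.2, and none was called between states; the highest posterior was 0.64, for Ccng1 in state 3 against state 1. The share of protein-coding features called was 1.24% for state 3 and 0.46% for state 2, each against state 1, and 0.616% between states 3 and 2. Cdkn1a had 7.77 in state 3, 6.94 in state 2 and 2.99 in state 1, the last from an estimated 6 reads with a counting error of 39.6%. Perp had 25.0, 23.7 and 11.1 in states 3, 2 and 1, Mdm2 had 32.8, 38.9 and 26.1, and Trp53 had 23.8, 22.4 and 35.1. Posteriors of a difference in state 3 against state 1 were 0.13 for Cdkn1a, 1.3e-07 for Perp, 0.069 for Mdm2 and 5.6e-10 for Trp53. For these genes the scores thus favoured equal values. The median log2 ratio of the 10 genes was 0.51 in state 3 and 0.67 in state 2, each against state 1, beside 0.096 and 0.052 for the 5375 protein-coding features with a mean of at least 5. The direction differed from that in the RNA-seq table for 2 genes called there, in differences that were not called here. Sesn2, which fell in the RNA-seq table, had 14.4 in state 3, 10.8 in state 2 and 5.36 in state 1. Bbc3, which rose there, had 3.55 in state 3, 2.48 in state 2 and 6.86 in state 1 (log2 -0.79 and -1.18 for states 3 and 2 against state 1).

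MicroRNAs touch the pathway on both sides: the miR-34 and miR-192 families are known p53 targets, and the miR-290 and miR-302 families are known to hold Cdkn1a low in mouse ESC. The mature sequences are shown to compare their seeds, bases 2 to 8, which are in capitals.
mmu-miR-34a-5p: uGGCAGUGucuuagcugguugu
mmu-miR-34b-5p: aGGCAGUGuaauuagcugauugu
mmu-miR-192-5p: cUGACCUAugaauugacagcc
mmu-miR-215-5p: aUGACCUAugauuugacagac
mmu-miR-291a-3p: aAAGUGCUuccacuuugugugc
mmu-miR-294-3p: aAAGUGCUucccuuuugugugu
mmu-miR-295-3p: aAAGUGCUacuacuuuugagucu
mmu-miR-302b-3p: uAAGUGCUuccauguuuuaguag
mmu-miR-302d-3p: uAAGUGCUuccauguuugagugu

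One seed was shared by miR-34a and miR-34b, another by miR-192 and miR-215, and another by miR-291a, miR-294, miR-295, miR-302b and miR-302d. In miR-302c the same letters begin 1 base earlier. Values were given per hairpin, the precursor, and not per mature arm. Of 9 measured hairpins of microRNAs known as p53 targets or partners, 0 rose and 4 fell in state 3 against state 1. These 4 were mir-192, mir-194-2, mir-143 and mir-145a. Of the 605 named hairpins, 25.3% were called there, 2.81% higher and 22.5% lower. In state 2 against state 1, 0 of the 9 rose and 3 fell (mir-192, mir-194-2 and mir-143), beside 12.1% called (2.48% higher, 9.59% lower). In state 3 against state 2, 0 of the 9 rose and 2 fell (mir-192 and mir-143), beside 15.7% called (0.661% higher, 15% lower). The hairpin mir-34a had 48.3 in state 3, 75.1 in state 2 and 140.4 in state 1 and was not called (posterior 0.351 for state 3 against state 1). The hairpin mir-34c had 254, 245 and 159 in the same order and was not called either. The hairpin mir-192 had 236 in state 3, 623 in state 2 and 1452 in state 1 and fell in each comparison (log2 -2.62 for state 3 against state 1, posterior 1.00). The median log2 ratio of the 335 hairpins with a mean of at least 5 was -0.93 for state 3 against state 1, so these falls stood beside a general one.

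From the miR-290 and miR-302 families, 7 hairpins were chosen. In state 3 against state 1, 3 of them rose (mir-302b, mir-302c and mir-302d) and 3 fell (mir-291a, mir-294 and mir-295). In state 2 against state 1, 3 rose and 1 fell (mir-291a), and in state 3 against state 2 none was called. Of the 605 named hairpins, 2.81%, 2.48% and 0.661% were called higher in these comparisons, and 22.5%, 9.59% and 15% lower. The summed value of the 7 was 21333 in state 3, 38554 in state 2, 74529 in state 1 and 78038 in the total population. Most of it in state 1 came from mir-291a, mir-294 and mir-295, with 21383, 26555 and 26063. The hairpins mir-302b, mir-302c and mir-302d, which rose against state 1, added little to it. Across the 3 states the sum was the reverse of the order of Cdkn1a, but both were higher in the total population than in state 1. The totals of the small RNA columns ran in the same order across the states, with 2.61 M in state 3, 3.43 M in state 2, 5.13 M in state 1 and 4.15 M in the total population. The hairpin mir-294 had 6445 in state 3, 14572 in state 2 and 26555 in state 1, and mir-302b had 992, 898 and 170.5. Whether these microRNAs took part in the Cdkn1a values was not tested.

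**Figure D5:**
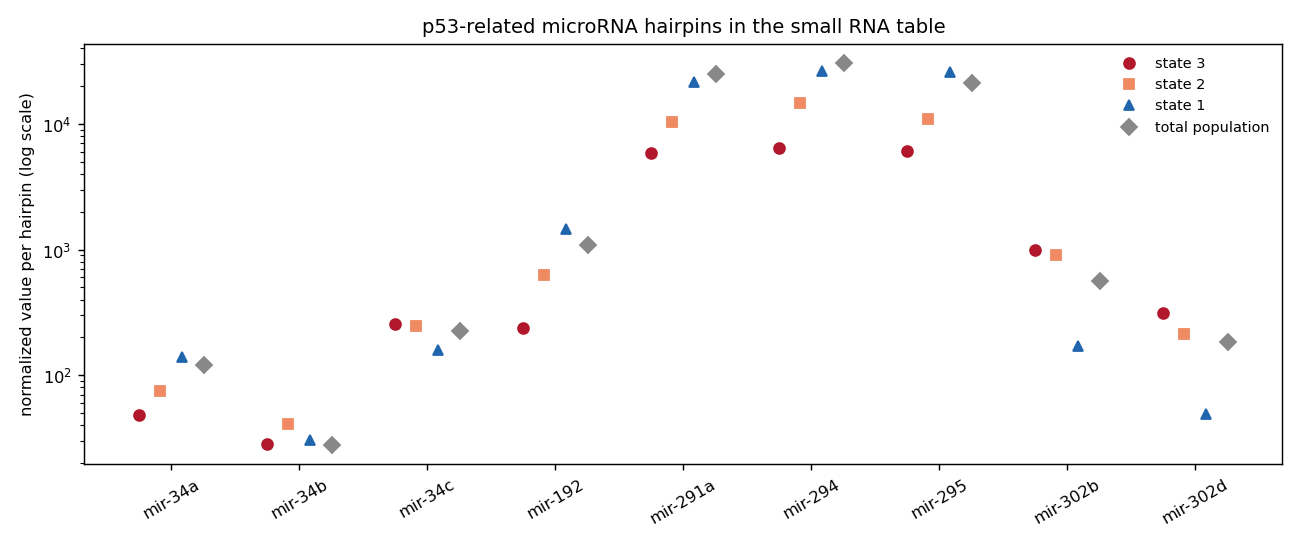
Normalized value per hairpin (vertical axis, log scale) in state 3, state 2, state 1 and the total population, 1 point per group without error. The hairpins mir-192, mir-291a, mir-294 and mir-295 have their lowest point in state 3, while mir-302b and mir-302d have their lowest in state 1.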

How the data were processed

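Libraries were rRNA-depleted and marked for strand with dUTP, or made from small RNA by adapter ligation, per the labels' protocols. STAR 2.4.1d, RSEM 1.2.30, mm10 and GRCm38 are listed in the submitters' processing notes. The sources used here do not say whether counting used strand. The authors deposited a normalized signal per feature and group, and a score, the posterior probability, for each of 15 patterns, per the file headers. How libraries were scaled and merged is not given there.

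The patterns were read in the EBSeq order, state 3, state 2, state 1, total population. This order was inferred: in 94.4% of the 1453 genes with an unequal pattern scored 0.95 or more and a mean of 5 or more, the values of groups that a pattern equates were nearer to each other than to the rest, against 90.8% with state 1 and the total population exchanged. No test over libraries could be run, and no p-value was computed. The summing step was run on simulated scores with known patterns in this same order, which cannot test whether the inferred order is right.

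The 10 genes, the 8 other lists and the tests were chosen with earlier results of these data known. Named were all 10 genes, up to 4 called genes of the largest ratio per list and comparison, the 3 genes of most similar course for Trp53 and Cdkn1a, and genes that make up a count of 5 or fewer; some genes that this rule names are not reported here. In RefSeq, 0 of the 10 genes overlapped another gene's span. Tools were Python 3.11.15, pandas 2.3.3 and numpy 2.4.6. Separate cultures are not named in the labels, so the spread behind the posteriors may be technical. For depth, the most frequent low value in each column was read as 1 read.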

Additional observations from a re-analysis of the deposited data

How the results depend on the processing

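The counts of the 10 genes called stayed within 1.5 times in all 6 comparisons with a posterior threshold of 0.99 or 0.90 and with the exchanged pattern order. A pseudocount of 0.5 or 10 and 3 other scalings (column total, column total without Gm26917, median of ratios) were also tried. Calls rested on the authors' posteriors, so these settings could change the ratios but not whether a gene was called. Leaving out genes with a mean under 5 could not change a count either, because Bbc3, the lowest of the 10, had a mean of 237. At 0.99, Phlda3 (posterior 0.966) was no longer called in state 2 against state 1 or against the total population. With the pattern order exchanged, Sesn2 was not called in state 2 against state 1 (posterior 0.351) and was called in state 2 against the total population. At 0.99 the regulators called in state 2 against state 1 numbered 5 in place of 10. The hairpins of p53 targets or partners called in state 3 against state 2 then numbered 1 in place of 2. At 0.90 the fibroblast markers called in state 2 against state 1 numbered 2 in place of 1. No called ratio of the 10 genes changed sign under these settings. The share called among genes with a mean of at least 100 was added after the data were seen: 42.5% for state 3 against state 1, beside 20.4% of all genes. The log2 ratio of Bbc3 in state 1 against the total population, not called, was 0.0020 and became -0.043 with the column total. No paired analysis was possible because the columns hold 1 value per group and carry no replicate, and for the same reason replicates could not be left out in turn. A value of 0 allows up to 3 reads over a group.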
